A study of Mus musculus with 8 samples.

Results

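Cytochrome P450 genes were taken as every gene whose single annotated symbol has the form Cyp, family number, subfamily letters and gene number, which gave 82 of the 19937 genes measured. The choice used symbols alone, so Cyp51, which has no subfamily letter, is not a member. Each of the 82 genes was measured by 1 probe set, and 7 further probe sets were left out because they are annotated to a P450 gene together with other genes. Those included the shared probe set of the Cyp2a4 and Cyp2a5 pair, so the nicotine and coumarin oxidase Cyp2a5 was not analysed here.

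The samples were 8 whole mouse lungs, untreated and taken at postnatal day 21, each on its own Affymetrix expression array. In 4 mice beta-catenin, the effector of canonical Wnt signalling encoded by Ctnnb1, was stabilized, and in the other 4 it was knocked out. The labels record all mice as male. They name no Cre driver and no altered exon, so which cells carried the alleles is unknown here. Lungs without either allele were not analysed here, so no difference can be assigned to either allele alone. Values are log2 expression values from RMA, and differences are stabilized minus knockout, with 4 arrays a group in every test unless stated.

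Cytochromes P450 are haem enzymes of the endoplasmic reticulum and mitochondria that insert oxygen into their substrates with electrons from a reductase. Families 1 to 3 mainly oxidize drugs, pollutants and other foreign compounds, family 4 hydroxylates fatty acids and eicosanoids, and the remaining families make or break down sterols, steroids, retinoids and vitamin D. In mouse lung most foreign compound oxidation takes place in the club cells of the airway, whose P450 enzymes turn naphthalene and similar compounds into toxic products.

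The sex recorded in the labels was not borne out in 4 of the 8 arrays. Stabilized replicates 1 and 4 and knockout replicates 1 and 3 had Xist at 10.36 to 10.59 and 3 Y-linked genes at or below 4.00, and the other 4 arrays had Xist at 4.18 to 4.62. Both groups held 2 arrays of the female and 2 of the male pattern. Stabilized replicate 2 stood apart in another way, with the hepatocyte gene Alb at 8.08 against 4.09 to 4.64 in the other 7 arrays, and the 7 members called below all passed without it. The mean log2 level of 11 hepatocyte markers was 5.65 on this array and 4.95 to 5.08 on the others. The liver P450 genes Cyp3a11 and Cyp2c29, chosen after the Alb value was seen, were below background in both groups. They do not stand for all P450 genes of liver, since Cyp2e1 lay above background. Cyp2e1 read 6.14 on stabilized replicate 2, the highest of the stabilized arrays. Nothing in the labels says that replicates were extracted or hybridized in batches. The tests set each group difference against the spread between these mice, moderated across genes by limma.

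Of the 82 members, 27 lay above background in these lungs. Background was set by 1178 olfactory and vomeronasal receptor genes, which lung was taken not to express, and a member counted as above it when its mean over the 8 arrays exceeded their 95th percentile of 5.18. The 27 comprised 2 of 3 members of family 1, 11 of 44 of family 2, 0 of 6 of family 3, 6 of 13 of family 4, 5 of 12 of the sterol and steroid families, 2 of 3 of the retinoid family and Cyp20a1. Just inside the bound was Cyp4f15 at a mean of 5.19, and just outside it Cyp2ab1 at 5.09. A bound at the 99th percentile, 6.07, left 14 members, so the members between these levels are the less certain ones. Values of different probe sets are not comparable as amounts of RNA, and a member below the bound may still be transcribed in a rare cell type.

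**Figure D1:**
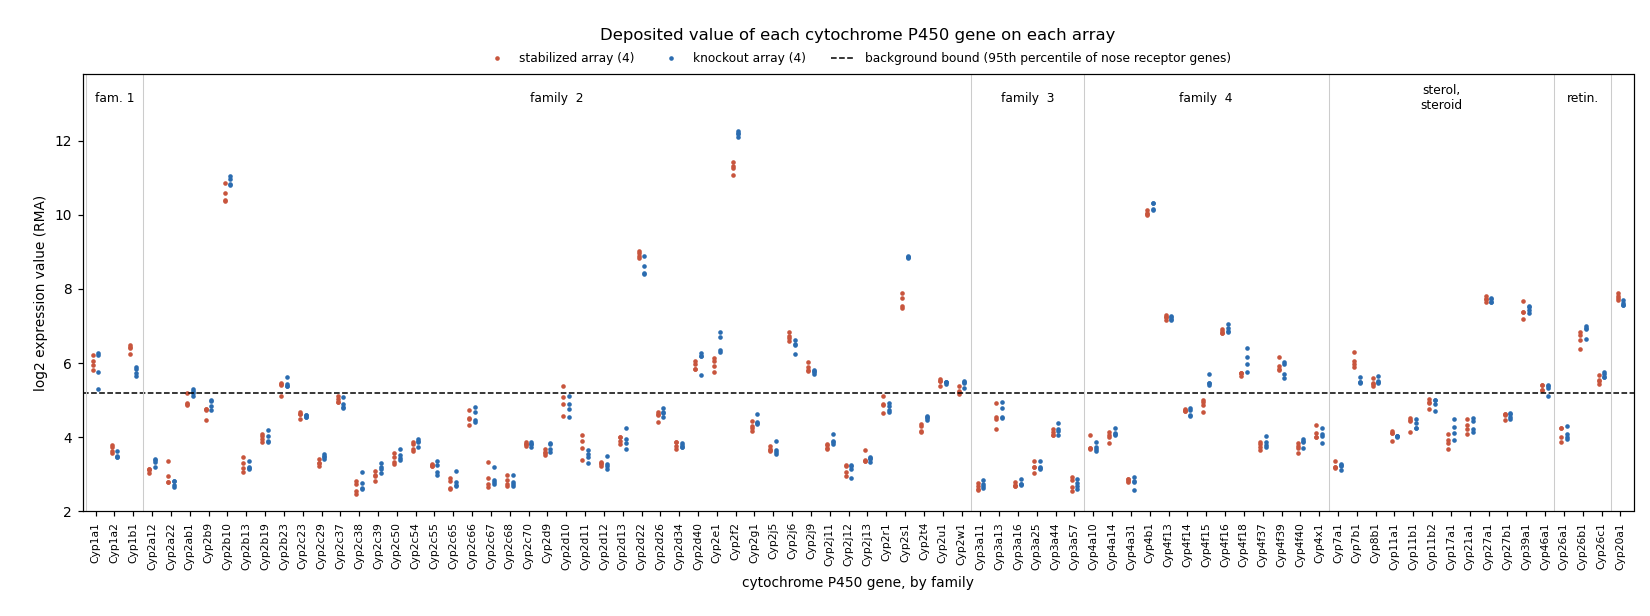
Log2 expression value (y axis) of each of the 82 cytochrome P450 genes (x axis, grouped by family; retin., retinoid family; the last gene, Cyp20a1, stands alone) on the 4 stabilized and 4 knockout arrays, 1 point per array. The dashed line is the background bound of 5.18, above which the mean of 27 genes lies; all 6 genes of family 3 lie below it.

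Members well above the bound in both groups covered several of these roles. Cyp2f2, the naphthalene-activating enzyme of club cells, lay between 11.09 and 12.25 over the 8 arrays. The xenobiotic oxidase Cyp2b10 lay between 10.38 and 11.06, and Cyp4b1, a family 4 enzyme that also activates foreign compounds in lung, between 10.01 and 10.32. The other members whose lowest array exceeded 7 were Cyp2s1, Cyp2d22, the fatty acid hydroxylase Cyp4f13, the sterol hydroxylases Cyp27a1 and Cyp39a1 and the orphan enzyme Cyp20a1. Among members below the bound were Cyp1a2 at 3.46 to 3.79, the vitamin D activating enzyme Cyp27b1 at 4.46 to 4.64 and Cyp3a13 at 4.22 to 4.95.

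Between the groups, 7 of the 82 members (8.54%) passed the test (limma, adjusted p under 0.05 with the Benjamini-Hochberg method across the whole table), against 9.62% of all genes. Over all 82 members that share was near that of all genes. Among the 27 members above background 6 passed (22.2%), where 1700 of 14175 genes above background did. This is a description without a test, since a member such as Cyp4f15 exceeded the bound through its level in knockout lungs. In stabilized lungs 5 members were lower (Cyp2s1, Cyp2f2, Cyp4f15, Cyp2e1 and Cyp2t4), against 4.96% of all genes in that direction, and 2 were higher (Cyp1b1 and Cyp7b1), against 4.65% of all genes. The median difference was -0.01 over the members and -0.01 over all genes, and 40 of the 82 differences were positive. Groups did not overlap in 12 members, or 14.6%, against 16.9% of all genes. In family 3, where no member lay above background, 0 of 6 passed in limma and 0 had an unadjusted p under 0.05.

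**Figure D2:**
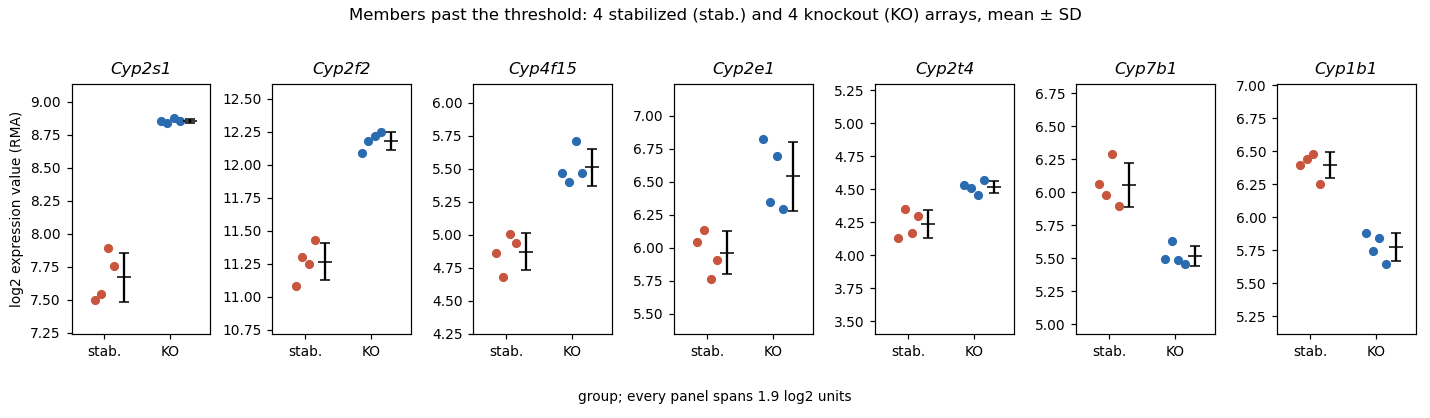
Log2 expression value (y axis) of the 7 members past the threshold on each stabilized (stab.) and knockout (KO) array, with the mean and SD of each group (n = 4) beside the points; every panel spans the same range of log2 units. In none of the 7 do the groups overlap: Cyp2s1, Cyp2f2, Cyp4f15, Cyp2e1 and Cyp2t4 are lower and Cyp7b1 and Cyp1b1 higher in all stabilized arrays.

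Cyp2s1, an enzyme of surface epithelia outside the liver, showed the largest difference of the 82. In replicate order, the stabilized arrays read 7.50, 7.54, 7.89 and 7.75 and the knockout arrays 8.85, 8.84, 8.88 and 8.86. The knockout arrays lay within a narrow band, and every stabilized array lay clearly below it. The gene was 2.27-fold lower in stabilized lungs, with a log2 difference at -1.19 ± 0.09 (SE, limma adjusted p = 5.1e-06). Within the arrays of male pattern the difference was -1.13, and within those of female pattern -1.24.

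Cyp2f2 was at 11.09, 11.31, 11.25 and 11.43 on the stabilized and at 12.09, 12.19, 12.22 and 12.25 on the knockout arrays. The groups were again far apart relative to their spread. Its level was 1.89-fold lower in stabilized lungs (log2 difference -0.92 ± 0.08, SE, limma adjusted p = 1.8e-05), with -0.94 and -0.90 within the male and female patterns.

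Markers of airway cells moved with these genes. All 10 club cell markers on the list used were lower in stabilized lungs, with a median difference of -1.36, among them the secretoglobin Scgb3a2 (-1.70 ± 0.09, SE) and the GABA receptor subunit Gabrp (-0.83 ± 0.07, SE). The mean log2 level of that list was 7.41 to 7.88 over the stabilized and 8.81 to 9.37 over the knockout arrays, and 0 of its 10 markers had a mean over the 8 arrays below background. In stabilized lungs alone 2 of the 10, Bpifa1 and Reg3g, chosen after their values were seen, had a mean below it. Ciliated cell markers were lower for 9 of 10 (median -0.92), with a mean level of 5.83 to 6.01 against 6.66 to 6.80. Of all genes 4.96% were lower. Both lists were chosen with earlier results of these data known, so their counts are a description and not independent support. In whole lung, fewer cells of a type and less RNA per cell cannot be told apart, and the part of either in the Cyp2s1 and Cyp2f2 differences was not tested.

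Cyp2e1, which oxidizes ethanol and small solvents, read 6.04, 6.14, 5.76 and 5.91 on the stabilized and 6.83, 6.35, 6.70 and 6.29 on the knockout arrays. The groups did not overlap, but the knockout arrays were spread more widely than for the genes above. Knockout replicates 1 and 3, both of female pattern, were the high ones. Cyp2e1 was 1.49-fold lower in stabilized lungs (-0.58 ± 0.12, SE, limma adjusted p = 0.0096). The difference was -0.37 within the arrays of male pattern, where it did not pass (adjusted p = 0.27), and -0.79 within those of female pattern. Adding the Xist level as a covariate left the whole-series difference at -0.58. With 2 arrays of each pattern in both groups, that term could hardly move the difference and does not bear on the split.

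Of family 4, only Cyp4f15 passed, and the other 12 members did not. This relative of the leukotriene and fatty acid hydroxylases was at 4.858, 4.678, 5.004 and 4.940 on the stabilized and at 5.464, 5.397, 5.711 and 5.469 on the knockout arrays. All stabilized arrays lay below the background bound and all knockout arrays above it. Cyp4f15 was lower in stabilized lungs (-0.64 ± 0.09, SE, limma adjusted p = 6.6e-04), and since it was not above background there, the size of its decrease has no exact fold. It was -0.59 within the male pattern (adjusted p = 0.066) and -0.69 within the female pattern.

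Cyp2t4 also passed, at 4.13, 4.35, 4.17 and 4.30 on the stabilized and 4.53, 4.51, 4.46 and 4.57 on the knockout arrays. The gene lay below background on every array, and its difference of -0.28 ± 0.07 (SE, limma adjusted p = 0.021) is small. Leaving out stabilized replicate 1, stabilized replicate 3, knockout replicate 2 or knockout replicate 4 ended its call (highest adjusted p = 0.075), as did a second quantile normalization (adjusted p = 0.076).

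Cyp1b1, which oxidizes polycyclic hydrocarbons and oestrogens and is found in mesenchymal cells, was the member with the largest increase. The stabilized arrays read 6.40, 6.44, 6.48 and 6.25, and the knockout arrays 5.88, 5.74, 5.84 and 5.64. Every stabilized array exceeded every knockout array, for a 1.53-fold increase (0.62 ± 0.07, SE, limma adjusted p = 2.6e-04). Within the male and female patterns the difference was 0.77 and 0.46. Beside it, 1 of 8 pericyte and smooth muscle markers was higher, Rgs5 at 1.65 ± 0.10 (SE), and so were 3 of 8 fibroblast markers, Fn1, Tcf21 and Pdgfra. The mean level of the pericyte and smooth muscle list was 8.47 to 8.64 over stabilized and 8.21 to 8.35 over knockout arrays, and that of the fibroblast list 10.31 to 10.47 and 10.09 to 10.22. A few markers weighed heavily on these means. Differences ran from -0.05 to 1.65 (median 0.10) in the pericyte and smooth muscle list and from -0.16 to 0.64 (median 0.23) in the fibroblast list. The part of these cells in the Cyp1b1 difference was not tested. Of the remaining lists, 6 of 10 alveolar type 2, 2 of 8 alveolar type 1 and 2 of 8 macrophage markers were higher, 7 of 8 T and NK cell markers were lower, and 0 of 9 endothelial and 0 of 11 hepatocyte markers passed in limma, with 2 and 0 at an unadjusted p under 0.05. Of all genes 4.65% were higher and 4.96% lower, and all these marker lists were chosen with earlier results of these data known. The alveolar type 2 count was 2 without stabilized replicate 1 or knockout replicate 2, 3 or 4, and 3 without stabilized replicate 2 or 3 or knockout replicate 1. The alveolar type 1 count was 1 without stabilized replicate 1.

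The other members of family 1 did not pass. Cyp1a1, the classic target of the aryl hydrocarbon receptor, read 5.94, 5.81, 6.06 and 6.22 on the stabilized and 6.28, 5.30, 5.75 and 6.22 on the knockout arrays. Its knockout arrays spanned nearly a full log2 unit and enclosed the stabilized ones, and the difference of 0.12 ± 0.18 (SE, limma adjusted p = 0.73) has a 95% interval of -0.27 to 0.51. Cyp1a2 differed by 0.17 ± 0.07 (SE, limma adjusted p = 0.16). The receptor gene Ahr itself differed by -0.04 ± 0.09 and its repressor gene Ahrr by 0.04 ± 0.08 (SE), and of 7 measured receptor targets outside the P450 family 0 passed in limma and 0 had an unadjusted p under 0.05, with differences from -0.26 to 0.04. Without knockout replicate 3, 1 of the 7 was lower. Only 4 of the 7 lay above background, and Ahrr, which is among the 7, lay below it.

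Cyp7b1, which hydroxylates oxysterols and so leads both to bile acids and to the ligand of the lymphocyte receptor Gpr183, was higher in stabilized lungs. It read 6.06, 5.98, 6.29 and 5.90 on the stabilized and 5.49, 5.63, 5.49 and 5.46 on the knockout arrays. No arrays of the 2 groups overlapped, and the increase was 1.45-fold (0.54 ± 0.08, SE, limma adjusted p = 0.0017). It was 0.59 within the male pattern (adjusted p = 0.071) and 0.49 within the female pattern. Of the other 11 members of the sterol and steroid families none passed in this fit, including Cyp27a1 (0.04 ± 0.06, SE), Cyp39a1 (-0.05 ± 0.09, SE) and the steroid-forming enzymes Cyp11a1 and Cyp17a1, which lay below background.

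The promoters of 4 of these genes are shown because they hold the start regions of the decreases above background in family 2 and of the Cyp1b1 increase. Each runs from 250 bases before to 50 bases after the RefSeq gene start in build GRCm38.p6, 5′ to 3′ on the strand of the gene. Capitals mark every match, on either strand, to GCGTG (the core of the xenobiotic response element), CTTTGA (a TCF/LEF core) or TATAAA (the TATA box).
Cyp2s1 (chr7:25816476-25816775, reverse strand): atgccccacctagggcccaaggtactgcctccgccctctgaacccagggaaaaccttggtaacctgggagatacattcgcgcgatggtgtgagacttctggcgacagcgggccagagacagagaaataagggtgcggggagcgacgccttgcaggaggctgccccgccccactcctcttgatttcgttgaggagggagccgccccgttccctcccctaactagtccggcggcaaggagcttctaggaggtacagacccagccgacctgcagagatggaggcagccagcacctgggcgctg
Cyp2f2 (chr7:27119705-27120004, forward strand): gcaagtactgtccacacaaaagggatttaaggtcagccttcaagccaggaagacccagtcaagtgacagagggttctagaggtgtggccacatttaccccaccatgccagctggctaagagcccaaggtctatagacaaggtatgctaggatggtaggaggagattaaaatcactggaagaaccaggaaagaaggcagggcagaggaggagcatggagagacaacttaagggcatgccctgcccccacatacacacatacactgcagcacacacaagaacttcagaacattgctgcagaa
Cyp2e1 (chr7:140763569-140763868, forward strand): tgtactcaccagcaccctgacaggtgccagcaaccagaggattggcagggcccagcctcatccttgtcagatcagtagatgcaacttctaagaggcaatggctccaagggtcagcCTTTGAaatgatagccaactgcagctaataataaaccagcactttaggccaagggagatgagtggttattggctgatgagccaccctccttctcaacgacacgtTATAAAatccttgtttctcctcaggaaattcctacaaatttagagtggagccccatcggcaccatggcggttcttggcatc
Cyp1b1 (chr17:79715012-79715311, reverse strand): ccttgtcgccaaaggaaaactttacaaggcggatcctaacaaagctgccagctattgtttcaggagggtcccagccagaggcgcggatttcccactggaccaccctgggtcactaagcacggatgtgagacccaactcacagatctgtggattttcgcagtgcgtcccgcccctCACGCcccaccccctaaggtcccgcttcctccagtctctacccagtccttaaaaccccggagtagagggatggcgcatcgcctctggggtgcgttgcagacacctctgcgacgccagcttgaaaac

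The windows of Cyp2s1 and Cyp2f2 held none of these letters. That of Cyp2e1 held CTTTGA starting 135 bases and TATAAA starting 31 bases before the gene start, and that of Cyp1b1 held GCGTG on the opposite strand starting 76 bases before it. RefSeq windows existed for 63 of the 82 members, 71 windows in all. GCGTG stood in 16 of these (22.5%) against 32.4% of all 32851 windows, CTTTGA in 16 (22.5%) against 16.0%, and TATAAA in 25 (35.2%) against 13.6%. The matched letters do not overlap each other in the windows shown, and they describe sequence, not binding.

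Several other members above background came close to the threshold without passing. Cyp2b10 read 10.38, 10.40, 10.86 and 10.60 on the stabilized and 10.96, 10.82, 10.81 and 11.06 on the knockout arrays, so stabilized replicate 3 lay among the knockout arrays. Its difference was -0.35 ± 0.10 (SE, limma adjusted p = 0.054), and without stabilized replicate 3 it was -0.45 (adjusted p = 0.0080). On all 8 arrays it passed after a second quantile normalization (adjusted p = 0.033), with genes above background only (adjusted p = 0.042) and with a trended robust prior (adjusted p = 0.030). Cyp2d22, a family 2 drug oxidase, was at 8.98, 8.82, 9.02 and 8.89 against 8.89, 8.40, 8.61 and 8.42, a difference of 0.34 ± 0.10 (SE, limma adjusted p = 0.054) that overlapped only through knockout replicate 1. Without that array it was 0.45 (adjusted p = 0.0054), and it also passed with centred arrays, with array weights, with genes above background only, with the trended robust prior, with the replicate block and with the Xist level as a covariate.

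Cyp4b1 read 10.12, 10.01, 10.01 and 10.04 on the stabilized and 10.32, 10.13, 10.17 and 10.31 on the knockout arrays. The groups did not overlap, but by little, and the difference of -0.19 ± 0.07 (SE, limma adjusted p = 0.10) did not pass. After a second quantile normalization it did (-0.26, adjusted p = 0.025). Cyp4f18, a leukotriene hydroxylase of myeloid cells chosen after its values were seen, differed by -0.36 ± 0.11 (SE, limma adjusted p = 0.057). Cyp20a1 and the epoxygenase Cyp2j6 differed by 0.18 ± 0.07 and 0.25 ± 0.09 (SE, limma adjusted p = 0.10 and 0.091). The retinoic acid hydroxylase Cyp26b1 differed by -0.23 ± 0.10 (SE, limma adjusted p = 0.20), with a 95% interval of -0.46 to -0.0027 before adjustment. The intervals of Cyp4f13 (-0.12 to 0.15), Cyp4f16 (-0.23 to 0.07) and Cyp27a1 (-0.10 to 0.18) were narrow around small differences, whereas Cyp2d40 (-0.14 ± 0.12, SE) and Cyp3a13 (-0.16 ± 0.14, SE) were less precisely measured. Cyp2d40 was -0.27 without knockout replicate 2 (adjusted p = 0.057), and Cyp3a13 ran from -0.28 without stabilized replicate 2 to -0.048 without stabilized replicate 4.

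**Figure D3:**
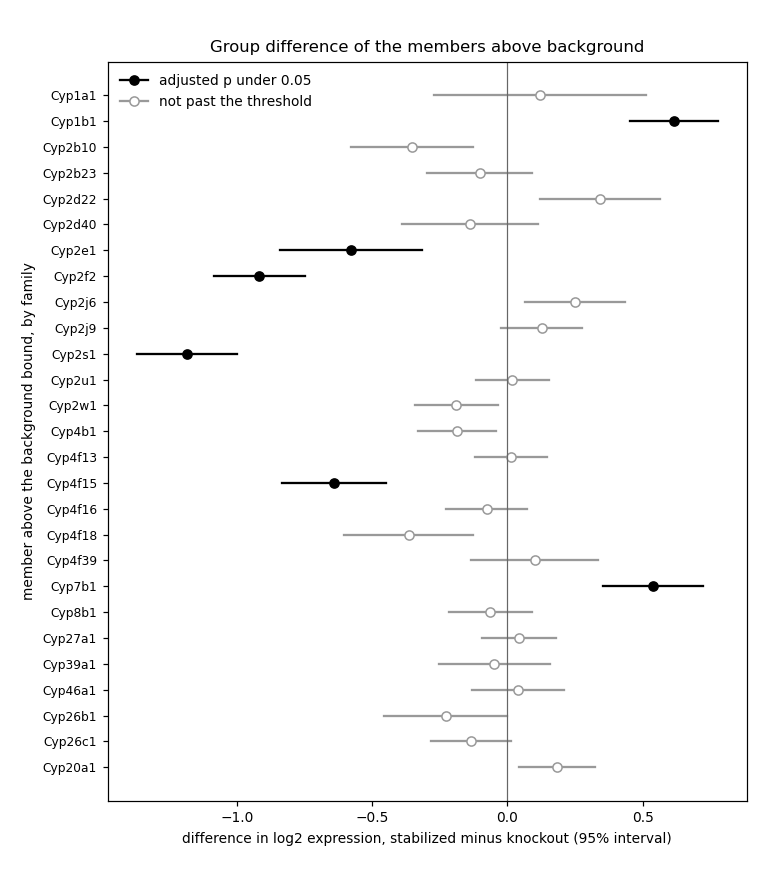
Difference in log2 expression, stabilized minus knockout (x axis), with its 95% interval for the 27 members above background (y axis, by family), from limma on 4 arrays per group. Filled black points passed the threshold: Cyp2s1, Cyp2f2, Cyp4f15 and Cyp2e1 lie to the left of zero and Cyp1b1 and Cyp7b1 to the right.

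P450 genes lie in tandem clusters of similar sequence, and the members past the threshold were not those of whole clusters. In the gene order of the RefSeq table, 61 of the 81 members found there fell into 10 clusters, in which successive members were at most 10 coding genes apart. The largest difference, that of Cyp2s1, came from one end of an 11-gene cluster on chromosome 7, and Cyp2f2 and Cyp2t4 were the neighbouring genes at its other end. Between them lay 8 members that did not pass, with differences from -0.35 (Cyp2b10) to 0.21 (Cyp2a22, below background). Of the 11 genes 3 passed, and 6 had an unadjusted p under 0.05 in limma, all of them lower in stabilized lungs. Those of the 6 that did not pass were Cyp2b10 and, below background, Cyp2b9 and Cyp2a12. In the 7-gene cluster on chromosome 17 Cyp4f15 passed and its 6 companions did not, with differences from -0.12 to 0.10. None of 8 members in the Cyp2d cluster on chromosome 15 and none of 12 in the Cyp2c cluster on chromosome 19 passed, while 1 and 2 of them had an unadjusted p under 0.05, and all 12 of the latter lay below background. Short probes may not fully separate such close relatives, above all within the Cyp2b, Cyp2c, Cyp2d and Cyp3a genes.

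**Figure D4:**
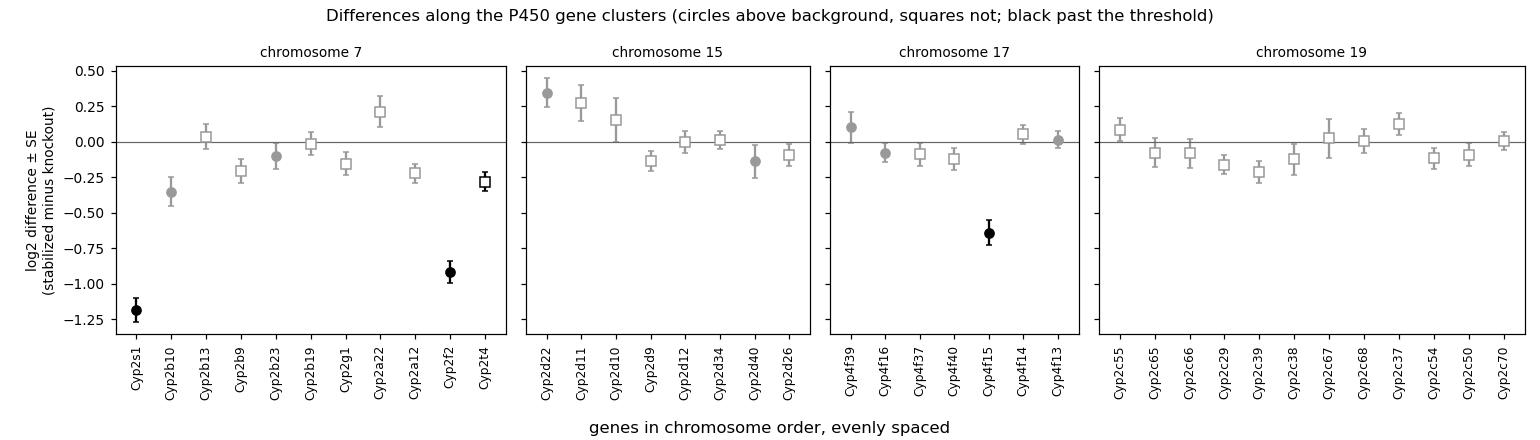
Log2 difference, stabilized minus knockout, with its SE (y axis), for the members of the 4 clusters with at least 7 members, in chromosome order and evenly spaced (x axis). Circles are members above background, squares members below it, and black marks those past the threshold: Cyp2s1, Cyp2f2 and Cyp2t4 at the ends of the chromosome 7 cluster and Cyp4f15 on chromosome 17.

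Genes that serve or regulate P450 enzymes passed at 0% to 18.2% per list in this paragraph, against 9.62% of all genes. Of 10 measured electron donors and partners, which include the cytochrome b5 genes and their reductases, 0 passed in limma and 4 had an unadjusted p under 0.05, with differences from -0.09 to 0.28. After centring each array, or with array weights, 2 of the 10 were higher. Of 11 haem synthesis and breakdown genes Fech, which inserts iron into haem, was higher (0.50 ± 0.10, SE, limma adjusted p = 0.0089), Alas1, the rate-limiting enzyme of haem synthesis outside red cells, was lower (-0.33 ± 0.09, SE, limma adjusted p = 0.041), and 9 did not pass. Leaving out any single array other than stabilized replicate 3 or knockout replicate 1 ended the Alas1 call (highest adjusted p = 0.12), as did centring each array (adjusted p = 0.064). Of 24 nuclear receptors and other regulators of xenobiotic and lipid response 0 passed in limma and 1 had an unadjusted p under 0.05, with differences from -0.17 to 0.16.

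In the fit on all arrays, the other oxidases and hydrolases of foreign compounds that passed were lower in stabilized lungs. Of 22 measured, 4 were lower and 18 did not pass: the aldehyde oxidase Aox3 (-0.72 ± 0.11), the epoxide hydrolase Ephx1 (-0.36 ± 0.08) and the carboxylesterases Ces1f (-0.47 ± 0.07) and Ces1e (-0.44 ± 0.10, SE). The lower genes made up 18.2% of this list, against 4.96% of all genes in that direction. Ces1f lay below background, and the call of Ces1e did not survive leaving out stabilized replicate 1 or knockout replicate 2 or 3 (highest adjusted p = 0.058). A second quantile normalization also ended the Ces1e call (limma adjusted p = 0.056). The direction was not the same in every fit: without stabilized replicate 4, 1 of the 22 was higher and 4 were lower. Of 3 P450 genes named outside the family pattern, Cyp51, the sterol demethylase of cholesterol synthesis, was higher (0.57 ± 0.08, SE), and the thromboxane and prostacyclin synthases Tbxas1 and Ptgis differed by 0.16 ± 0.08 and 0.03 ± 0.10 (SE).

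Over the partner lists together, 19 of 119 genes (16.0%) passed, against 9.62% of all genes, of which 8 were higher and 11 lower. Without stabilized replicate 1, 12 passed. Of the 14175 genes above background, 1700 passed. The partner and marker lists were chosen with earlier results of these data known, so these shares are a description without a test. Partners of the lipid-metabolizing members went both ways. Of 18 genes of retinoid metabolism or response 4 were higher and 2 lower, with Rarres2 (0.71 ± 0.09) and Rdh11 (0.30 ± 0.06) among the former and the alcohol dehydrogenase Adh7 (-0.74 ± 0.07) and the retinal dehydrogenase Aldh1a1 (-0.42 ± 0.08, SE) as the latter. Rarres2 is named for responding to retinoic acid, and not every gene on the list metabolizes retinoids. With genes above background only, 3 were higher. Without stabilized replicate 1 only 2 of the retinoid genes were higher. Of 14 eicosanoid genes the prostaglandin dehydrogenase Hpgd (-0.42 ± 0.08) and the lipoxygenase Alox12 (-0.33 ± 0.07) were lower and the cyclooxygenase Ptgs2 (0.51 ± 0.14, SE) was higher. Ptgs2 lost its call without any single stabilized array or without knockout replicate 3 (highest adjusted p = 0.12), and Alox12 without knockout replicate 3 (adjusted p = 0.050). A second quantile normalization and the Xist level as a covariate also ended the Ptgs2 call (highest limma adjusted p = 0.062). Of 14 sterol partners 1 was higher and 2 lower, but 0 passed without stabilized replicate 2, stabilized replicate 4 or knockout replicate 3 and 1 passed without stabilized replicate 1, knockout replicate 1 or 2 or after a second quantile normalization. Higher was Hsd11b1 (0.34 ± 0.09, SE, limma adjusted p = 0.037). Lower were Abca1 (-0.25 ± 0.06, SE, limma adjusted p = 0.032) and Gpr183 (-0.32 ± 0.09, SE, limma adjusted p = 0.034). Gpr183 is expressed by B cells, of whose markers 5 of 5 were lower, with a mean level of 5.31 to 5.44 over stabilized and 6.60 to 7.01 over knockout arrays. The part of these cells in the Gpr183 difference was not tested. Leaving out any single array other than stabilized replicate 1 or knockout replicate 4 ended its call (highest adjusted p = 0.083), as did a second quantile normalization (adjusted p = 0.11).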

How the data were processed

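Per the submitters' processing notes, the deposited log2 values were made with RMA and the affy package, without versions; a genome build is not given in the sources used here. RMA subtracts background, equalizes the distribution of all arrays by quantile normalization and summarises probes per probe set, so a global shift would be hidden and dim probe sets are compressed. Gene symbols came from the platform annotation; of 34760 probe sets, 21640 had 1 symbol, and the brightest probe set (mean of 8 arrays) stood for each of 19937 genes.

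The comparison was fitted with limma 3.58.1 in R 4.3.3 (lmFit, eBayes, constant prior) on 4 stabilized and 4 knockout arrays, without covariates or a filter, with Benjamini-Hochberg adjustment over all genes. Scripts were tested on simulated data. The members and lists were chosen with earlier results of these data known. Named are the members past the threshold, the 12 others with the highest mean and a fixed list; in each partner and marker list, up to 4 genes past the threshold with the smallest p, and Ahr and Ahrr. Lists held 137 partner entries (123 measured) and 97 marker entries (95 measured), and genes without a probe set of their own, among them Por, were not analysed here. Scaling, probe set choice, filters, prior, weights, blocks and left-out arrays were varied, and fits within each sex pattern were added after seeing the data. Arrays carry no read depth, and 4 per group limits the precision.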

Additional observations from a re-analysis of the deposited data

Results flagged for a closer look

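In 3 of the 44 sets of 4 arrays screened (22 named members in 2 groups) a single array stood far from the others, where chance alone marks about 1 in 20 sets. None of the 3 genes passed the test between the groups. Cyp2d40 in knockout replicate 2 was at 5.67, while the other knockout arrays lay between 6.18 and 6.27. Cyp1a2 in knockout replicate 3 was at 3.64 against 3.46 to 3.48, a small step in a gene below background. Cyp27b1 in stabilized replicate 1 was at 4.46 against 4.61 to 4.63, likewise below background.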

How the results depend on the processing

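Cyp2s1, Cyp2f2, Cyp1b1, Cyp4f15, Cyp2e1 and Cyp7b1 passed in all 8 fits that left out 1 array and in all 8 other settings on the full set of arrays, namely the other scalings, probe set means, the background filter, the trended prior, array weights, the replicate block and Xist as a covariate. The number of members past the threshold was 7 to 10 over these settings and 7 to 8 with 1 array left out. Not all of these settings could move a member. Each of the 82 had 1 probe set, so probe set means left its values unchanged. The replicate block, balanced over the groups, could change the spread but not a difference, and the Xist level could hardly change a difference. In 2 alternatives chosen after the data were seen, with 2 arrays per group, 3 members passed among the arrays of male pattern and 6 among those of female pattern, and 4 partner genes passed in either, against 19 in the full fit; each of these fits holds fewer arrays. Partner genes past the threshold numbered 12 to 17 with 1 array left out, lowest without stabilized replicate 1. Members above background numbered 14 at the 99th percentile, 15 at the median of all probe sets (5.99), and 26 to 27 with 1 array left out.

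Replicate numbers did not pair the arrays: deviations of same-numbered arrays from their group means correlated at -0.0051 to 0.084, and 1 of 4 stabilized arrays matched its own number best. With the replicate number as a block, 8 members and 19 partner genes passed, the added member being Cyp2d22 (adjusted p = 0.027). These settings were run gene by gene for the 22 named members. Among those, signs turned in 5, none of which passed in any of the fits. Cyp27b1 was -0.023 with array weights, -0.019 among arrays of female pattern and -0.024 to 0.050 with 1 array left out. Among arrays of male pattern Cyp39a1 was 0.10 and Cyp3a13 0.18. With 1 array left out Cyp39a1 ran from -0.14 to 0.023, Cyp1a1 from -0.077 to 0.25 and Cyp4f13 from -0.0078 to 0.038. The causes of these changes were not tested.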
